A study of Homo sapiens with 3 samples.

Results

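Molecular chaperones of the cytosol, the endoplasmic reticulum and the mitochondria were described in cultures of the human gastric adenocarcinoma line AGS after exposure to the compounds SFA or SFE. The genes were chosen by name: heat shock proteins of the HSP70, HSP110, HSP90, small HSP, HSP60 and HSP10 families, J-domain proteins of the DNAJA, DNAJB and DNAJC classes, subunits of the CCT chaperonin with TCP1, protein disulfide isomerases of the PDIA series, the lectin chaperones CANX and CALR, and the regulators BAG3, HSF1 and AHSA1. Names ending in P and digits, which mark pseudogenes, were left out. This gave 104 of the 50495 gene names in the deposited table, and 69 of them reached 1 FPKM (fragments per kilobase of gene and per library total) in at least 1 library. The cells received 12 µM SFA, 18 µM SFE or DMSO, the solvent used as negative control, and total RNA was taken after 48 h. Each group is 1 library of 1 cell line, so differences have no replicate check, and neither a test of the conditions nor a p-value is given. The doses of SFA and SFE differed, and what the code names stand for is not given in the sources used here.

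Chaperones bind unfolded stretches of proteins and release them again, which helps newly made or damaged proteins to reach their shape. HSP70 proteins work in cycles of ATP hydrolysis started by J-domain partners, HSP90 proteins act on kinases and receptors at a later step, and the ring-shaped CCT and HSP60 chaperonins enclose their clients. In the endoplasmic reticulum, calnexin and calreticulin hold glycoproteins by their sugars while disulfide isomerases form and rearrange disulfide bonds. Many cytosolic chaperone genes are classical targets of the heat shock factor HSF1, and many of the endoplasmic reticulum are classical targets of the unfolded protein response.

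The libraries held 13639844 counts with SFA, 13644676 with SFE and 18767232 with DMSO, and the chaperone genes at 1 FPKM numbered 68 with SFA, 69 with SFE and 65 with DMSO. A fold given for 1 gene is its count per library total in 1 group over that in the other, with a 95% exact binomial interval. Such intervals cover counting error only, because each group is 1 library and the spread between cultures was not measured. Copies of the same fragment were not merged with the help of molecular identifiers. The intervals may therefore be too narrow even for counting error. Log2 differences were taken on log2(FPKM + 1), a scale that shrinks the differences of weakly expressed genes. Of the 8 epithelial markers examined, 3 reached 1 FPKM (KRT7, KRT8 and KRT18), and the list summed to 678 FPKM with SFA, 678 FPKM with SFE and 1069 FPKM with DMSO, whereas EPCAM and CDH1 stayed below 1 FPKM. KRT8 and KRT18 were lower in the treated libraries, but KRT7 was higher, at 161 FPKM with SFA, 151 FPKM with SFE and 118 FPKM with DMSO. No leukocyte, erythroid, endothelial, hepatocyte or gastric marker reached 1 FPKM, with 0.507 FPKM as the highest value. Of 7 fibroblast markers 4 reached 1 FPKM, and the list summed to 16.8 FPKM with SFA, 19.9 FPKM with SFE and 30.9 FPKM with DMSO. COL1A1, COL3A1 and PDGFRB were lower in the treated libraries, but THY1 was higher, at 6.48 FPKM with SFA, 7.25 FPKM with SFE and 4.29 FPKM with DMSO. The part of these marker differences in the chaperone values was not tested. In RNA from whole cultures, fewer cells expressing a gene and less RNA per cell cannot be told apart.

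The chaperone genes as a whole stood at nearly the same level in the 3 libraries. They took 1.70% of all counts with SFA, 1.68% with SFE and 1.68% with DMSO. With SFA, 34 of the 69 measured genes were higher and 35 lower than with DMSO, beside 51.4% higher and 48.6% lower among all 11680 genes at 1 FPKM or more. Their median log2 difference was −0.00039, against 0.01 over all genes. With SFE, 37 were higher and 32 lower than with DMSO, beside 55.2% and 44.8% of all genes, with a median of 0.04 against 0.03. Median-ratio scaling, which scales each library by its median ratio over genes counted in all 3 libraries, was 1 alternative. It turned the SFE split to 27 higher and 42 lower, beside 44.6% and 55.3% of all genes at 1 FPKM or more. The SFE median became −0.04, against −0.03 over those genes. As deposited, the shares of higher and lower chaperone genes lie near those of all genes. A gene that reached 1 FPKM in a treated library but not with DMSO can only count as higher there. This holds for chaperone genes and all genes alike.

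Few chaperone genes differed strongly. On the log2(FPKM + 1) scale, on which all counts of genes past a limit were made, at least 2-fold differences from DMSO were seen for HSPB3, higher with SFA, where 1.36% of all genes were that much higher, and for DNAJC8, lower with SFA, where the share was 1.34%. HSPB3 stayed below 1 FPKM with DMSO and was measured only through the treated libraries, so it could not have been counted as lower. With SFE, DNAJC8 was again at least 2-fold lower, where 1.01% of all genes were, and no chaperone gene reached 2-fold higher on that scale, where 1.37% did. By count ratios, HSPB3 at 5.50-fold and DNAJA3 at 2.07-fold were past 2-fold with SFE. Within 1.5-fold of DMSO lay 65 of the 69 genes with SFA, while 10.0% of all genes lay outside that range. With SFE 63 of the 69 did so, while 8.82% of all genes lay outside. Both comparisons use the same DMSO library, so a low or high DMSO count moves both in the same direction.

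**Figure D1:**
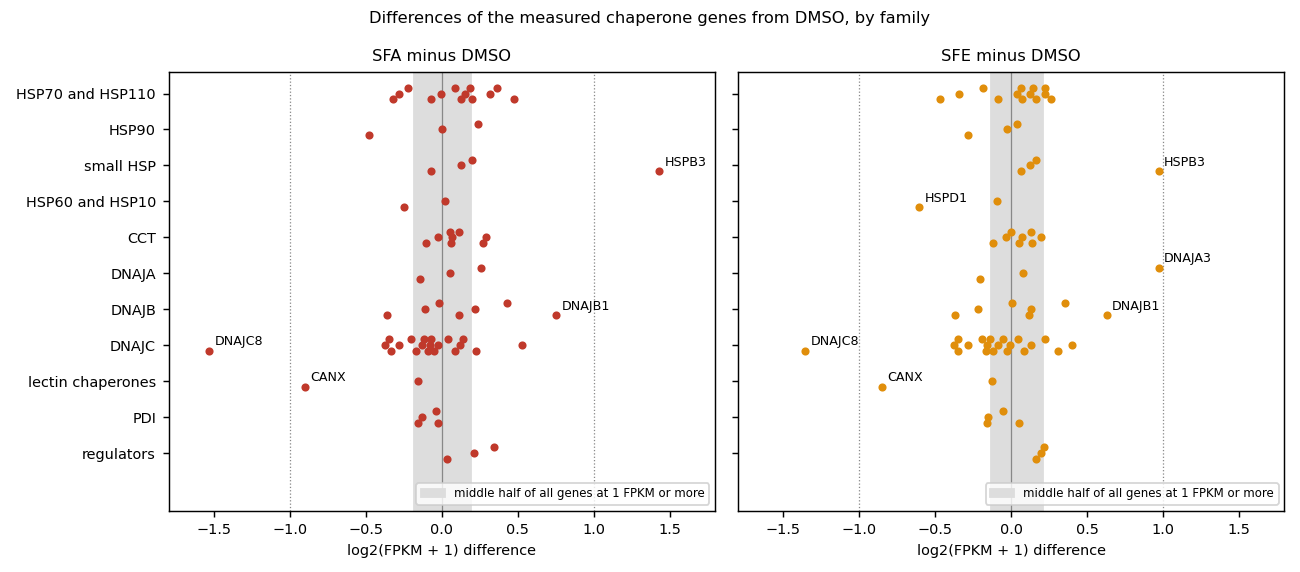
Difference of each of the 69 measured chaperone genes from DMSO in log2(FPKM + 1), by family, with SFA on the left and SFE on the right; each point is 1 gene, dotted lines mark a 2-fold difference and the grey band holds the middle 50% of all genes at 1 FPKM or more. Most genes lie within or near the band, and DNAJC8, CANX, HSPB3, DNAJB1, DNAJA3 and HSPD1 stand farther out in at least 1 panel.

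Among cytosolic HSP70 genes, the stress-inducible pair stood higher with both compounds. HSPA1A (chromosome 6, 31815464 to 31817946, forward strand) stood at 251 FPKM with SFA, 228 FPKM with SFE and 195 FPKM with DMSO, a 1.29-fold difference with SFA (95% counting interval 1.26 to 1.31) and a 1.17-fold difference with SFE (1.14 to 1.19). Its neighbour HSPA1B (31827735 to 31830255) stood at 87.3 FPKM with SFA, 78.5 FPKM with SFE and 69.9 FPKM with DMSO, or 1.25-fold (1.19 to 1.31) with SFA and 1.12-fold (1.07 to 1.18) with SFE. The longest open reading frames of both genes matched at 1922 of 1926 positions (99.8%), so reads from one cannot be told from reads of the other with certainty. Their summed counts were 18047 with SFA, 16371 with SFE and 19414 with DMSO, and their share of all counts was 1.28-fold that of DMSO (1.25 to 1.31) with SFA and 1.16-fold (1.14 to 1.18) with SFE. The order SFA, SFE, DMSO from high to low held for each of the pair, and each interval lay above 1. As their reads cannot be told apart with certainty, the pair does not give independent observations.

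The promoters of inducible chaperones carry heat shock elements, inverted repeats of GAA that HSF1 binds. The 8-letter unit GAANNTTC (N is any base, and the unit reads the same on both strands) and the 13-letter unit GAANNTTCNNGAA, which contains it, were searched on both strands from 250 bases before to 50 bases after each RefSeq start on GRCh38.p14. The stretches of some well-known members are shown 5′ to 3′ on the gene's strand because the values of these genes are described here. In each stretch the matching letters are in capitals. The first 3 hold the 8-letter unit and the others the 13-letter unit, which in HSP90AB1 occurs at 2 sites and there and in HSPA6 reads on the opposite strand.
HSPA1A (chr6:31815417-31815464, + strand): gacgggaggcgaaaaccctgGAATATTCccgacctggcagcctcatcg
HSPA1B (chr6:31827613-31827660, + strand): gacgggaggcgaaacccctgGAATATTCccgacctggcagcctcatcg
DNAJB1 (chr19:14518447-14518494, - strand): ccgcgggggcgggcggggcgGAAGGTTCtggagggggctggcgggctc
HSPA8 (chr11:123062334-123062386, - strand): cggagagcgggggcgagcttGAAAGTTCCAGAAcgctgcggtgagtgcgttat
HSPA6 (chr1:161524446-161524498, + strand): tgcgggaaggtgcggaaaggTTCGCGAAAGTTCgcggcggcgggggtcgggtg
HSP90AB1 (chr6:44247758-44247863, + strand): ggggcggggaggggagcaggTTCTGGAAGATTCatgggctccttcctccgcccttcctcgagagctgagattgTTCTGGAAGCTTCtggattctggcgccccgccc

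The 8-letter unit occurred in 6.77% of 35116 promoters and in at least 1 promoter of 8.21% of the 27305 genes, and of 17 of the 64 measured chaperone genes found in the table. The 13-letter unit occurred in 0.490% of promoters, in 0.608% of genes and in 7 of the chaperone genes (DNAJA1, DNAJB6, HSP90AA1, HSP90AB1, HSPA6, HSPA8 and HSPD1). Of these, DNAJA1, DNAJB6, HSP90AA1 and HSPD1 are not shown above. Of the 7 genes, 2 were higher and 5 lower with SFA than with DMSO, with a median log2 difference of −0.01. With SFE, 4 were higher and 3 lower, with a median of 0.01. Of the 17 genes with the 8-letter unit, 8 were higher and 9 lower with SFA (median −0.00039). With SFE, 12 of them were higher and 5 lower (median 0.04). Among all genes at 1 FPKM or more, 51.4% were higher with SFA and 55.2% with SFE. The 250 bases before the starts of HSPA1A and HSPA1B matched at 235 of 251 aligned positions (93.6%). A match describes letters in this window and is not evidence of binding.

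The other HSP70 genes differed from DMSO in both directions by small amounts. HSPA8, the constitutive HSP70 that also strips clathrin coats, stood at 104 FPKM with SFA, 107 FPKM with SFE and 105 FPKM with DMSO. Its ratio to DMSO was 0.994 (0.976 to 1.01) with SFA and 1.03 (1.01 to 1.04) with SFE, and the SFE value became 0.971 under median-ratio scaling. HSPA4, an HSP110-type nucleotide exchange factor for HSP70, stood at 12.8 FPKM with SFA, 12.3 FPKM with SFE and 15.8 FPKM with DMSO, 1.23-fold lower (1.15 to 1.32) with SFA and 1.29-fold lower (1.20 to 1.38) with SFE. HSPH1, the HSP110 protein whose gene is itself heat-inducible, stood at 4.64 FPKM with SFA, 4.79 FPKM with SFE and 5.59 FPKM with DMSO, 1.21-fold lower (1.11 to 1.31) with SFA and 1.17-fold lower (1.08 to 1.26) with SFE. HSPA4 and HSPH1 were thus lower in libraries where the inducible HSP70 pair was higher.

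HSPA6, a strictly inducible HSP70 whose letters are shown above, had 49 counts with SFA, 38 with SFE and 36 with DMSO, a ratio of 1.87 (1.19 to 2.96) with SFA and 1.45 (0.896 to 2.36) with SFE. The interval with SFE included 1. The 13 measured HSP70 and HSP110 genes, of 16 listed, had median log2 differences of 0.13 with SFA (8 higher, 5 lower) and 0.07 with SFE (9 higher, 4 lower). Of all genes, 51.4% were higher with SFA and 55.2% with SFE. The family's share of counts was 0.399% with SFA, 0.393% with SFE and 0.372% with DMSO.

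DNAJB1, the main J-domain partner of inducible HSP70, was higher with both compounds. It lies on chromosome 19 (14514770 to 14529770, reverse strand) and stood at 24.7 FPKM with SFA, 22.6 FPKM with SFE and 14.3 FPKM with DMSO. Its counts were 2604 with SFA, 2387 with SFE and 2071 with DMSO, which gives 1.73-fold (1.63 to 1.83) with SFA and 1.59-fold (1.49 to 1.68) with SFE. The log2 differences of 0.75 with SFA and 0.63 with SFE passed 1.5-fold, which 5.36% of all genes did upward with SFA and 5.34% with SFE. The gene overlaps TECR, which had 1357 counts with SFA, 1373 with SFE and 1932 with DMSO, so TECR per library total was not higher with either compound.

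Of the other DNAJB genes, DNAJB12, which sits in the membrane of the endoplasmic reticulum with its J domain toward the cytosol, stood at 5.55 FPKM with SFA, 5.25 FPKM with SFE and 3.87 FPKM with DMSO. It overlaps no other listed gene, and its ratios were 1.43 (1.31 to 1.57) with SFA and 1.35 (1.23 to 1.49) with SFE. DNAJB2, a J-domain protein that binds ubiquitylated clients, had the most negative difference of the class at 2.75 FPKM with SFA, 2.71 FPKM with SFE and 3.81 FPKM with DMSO. The 7 measured genes of 13 listed split 4 higher and 3 lower with SFA, and 5 higher and 2 lower with SFE. Of all genes, 51.4% were higher with SFA and 55.2% with SFE. DNAJA1, a cytosolic partner of HSPA8, stood at 33.3 FPKM with SFA, 31.9 FPKM with SFE and 36.9 FPKM with DMSO, 1.11-fold lower (1.03 to 1.19) with SFA and 1.16-fold lower (1.08 to 1.24) with SFE.

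The strongest difference among chaperone genes at 5 FPKM or more was that of DNAJC8, a nuclear J-domain protein found with the splicing machinery. It lies on chromosome 1 (28199456 to 28233025, reverse strand), overlaps no other listed gene and had 732 counts with SFA, 838 with SFE and 3084 with DMSO. This corresponds to 11.6 FPKM with SFA, 13.3 FPKM with SFE and 35.5 FPKM with DMSO. It was 3.06-fold lower with SFA (2.82 to 3.32) and 2.68-fold lower with SFE (2.48 to 2.89), or −1.54 with SFA and −1.36 with SFE on the log2 scale. Both treated libraries lay far below the DMSO library, and that order rests on the single DMSO library.

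The DNAJC class held more lower than higher genes. Of 20 measured genes, 6 were higher and 14 lower with SFA (median −0.08), and the counts with SFE were also 6 and 14 (median −0.10). All but DNAJC8 lay within 1.5-fold of DMSO on the log2(FPKM + 1) scale in both comparisons. Of all genes at 1 FPKM or more, 48.6% were lower with SFA and 44.8% with SFE. DNAJC5, the cysteine string protein of secretory vesicles and the highest of the class by deposited FPKM, stood at 46.0 FPKM with SFA, 44.1 FPKM with SFE and 41.6 FPKM with DMSO. DNAJC13, an endosomal protein, stood at 2.33 FPKM with SFA, 2.53 FPKM with SFE and 3.31 FPKM with DMSO. The class took 0.0881% of counts with SFA, 0.0879% with SFE and 0.102% with DMSO, and DNAJC8 holds 732 of the 12012 class counts with SFA, 838 of 11990 with SFE and 3084 of 19210 with DMSO.

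HSP90 genes carried the most abundant member of the whole set. HSP90AB1, the constitutive cytosolic HSP90, stood at 555 FPKM with SFA, 546 FPKM with SFE and 555 FPKM with DMSO. The counting interval of its ratio to DMSO ran between 0.985 and 1.02 with SFA, and the ratio was 0.983 (0.969 to 0.998) with SFE. HSP90AA1, its inducible paralogue, stood at 83.1 FPKM with SFA, 72.1 FPKM with SFE and 70.2 FPKM with DMSO, 1.18-fold (1.15 to 1.22) with SFA and 1.03-fold (0.999 to 1.06) with SFE. The inducible form was thus higher with SFA while the interval with SFE included 1. Of the 14 listed HSP90 names only HSP90AA1, HSP90AB1 and HSP90B1 reached 1 FPKM.

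HSPB3, a small heat shock protein known mainly from muscle, gave the largest ratio and the weakest counts. It lies on chromosome 5 (54455601 to 54456384, forward strand) and had 26 counts with SFA, 16 with SFE and 4 with DMSO, or 2.43 FPKM with SFA, 1.50 FPKM with SFE and 0.272 FPKM with DMSO. The ratio was 8.94 (3.10 to 35.3) with SFA and 5.50 (1.78 to 22.6) with SFE. HSPB1, the abundant small heat shock protein of epithelial cells, stood at 236 FPKM with SFA, 260.0 FPKM with SFE and 248 FPKM with DMSO, 0.951-fold (0.924 to 0.978) with SFA and 1.05-fold (1.02 to 1.08) with SFE, and median-ratio scaling gave 0.991 for SFE. HSPB8, which works with BAG3 in selective autophagy, stood at 42.3 FPKM with SFA, 42.3 FPKM with SFE and 38.7 FPKM with DMSO. HSPB1 and HSPB8, the members with high counts, thus lay close to DMSO.

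BAG3 and AHSA1 were higher in both treated libraries, and HSF1 with SFE. BAG3, a co-chaperone that links HSP70 to autophagy and is itself an HSF1 target, stood at 19.4 FPKM with SFA, 17.7 FPKM with SFE and 15.1 FPKM with DMSO, 1.29-fold (1.17 to 1.42) with SFA and 1.17-fold (1.06 to 1.29) with SFE. AHSA1, the activator of HSP90 ATPase activity, stood at 21.4 FPKM with SFA, 20.8 FPKM with SFE and 18.4 FPKM with DMSO, 1.16-fold (1.09 to 1.24) with SFA and 1.13-fold (1.06 to 1.20) with SFE. HSF1, the heat shock transcription factor, stood at 10.8 FPKM with SFA, 12.3 FPKM with SFE and 10.6 FPKM with DMSO, 1.02-fold (0.965 to 1.09) with SFA and 1.16-fold (1.09 to 1.23) with SFE. The interval for HSF1 with SFA included 1, and RNA levels do not measure the factor's activity.

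**Figure D2:**
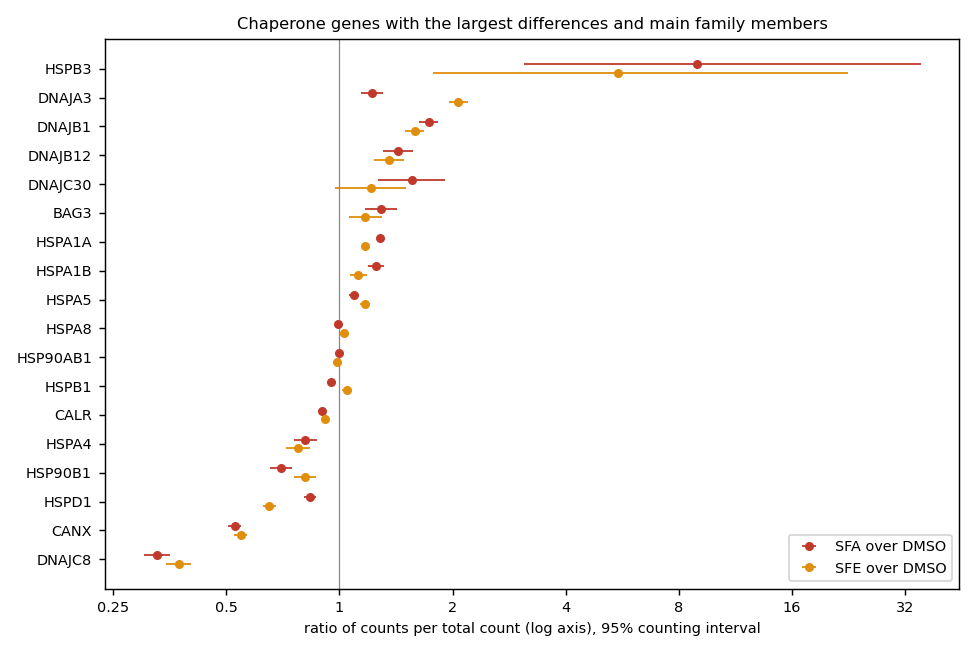
Ratio of counts per library total for 18 chaperone genes, SFA over DMSO in red and SFE over DMSO in orange, on a log axis with bars for the 95% counting interval. HSPB3 has the widest bars and DNAJC8 the lowest ratios, while HSPA8 and HSP90AB1 lie close to 1.

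CCT, the chaperonin that folds actin and tubulin, showed small differences in most subunits. CCT7 stood at 131 FPKM with SFA, 125 FPKM with SFE and 109 FPKM with DMSO, 1.21-fold (1.18 to 1.24) with SFA and 1.15-fold (1.12 to 1.18) with SFE. CCT3 stood at 121 FPKM with SFA, 104 FPKM with SFE and 99.0 FPKM with DMSO, 1.22-fold (1.20 to 1.25) with SFA and 1.05-fold (1.02 to 1.08) with SFE, and median-ratio scaling gave 0.994 for SFE. TCP1, the alpha subunit, stood at 45.4 FPKM with SFA, 45.1 FPKM with SFE and 46.2 FPKM with DMSO, with both intervals including 1. Subunits that sit in one ring in equal number thus did not share one ratio.

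Over the 8 measured subunits the median log2 difference was 0.06 with SFA and 0.06 with SFE, with 6 higher and 2 lower in both. Under median-ratio scaling the SFE median turned to −0.02, with 3 higher and 5 lower, while that of SFA remained at 0.03. The CCT genes took 0.424% of counts with SFA, 0.407% with SFE and 0.385% with DMSO, the highest share of any family here. As deposited, 51.4% of all genes were higher with SFA and 55.2% with SFE, beside the 6 of 8 subunits.

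In the endoplasmic reticulum the chaperone genes split. Of 17 measured genes, 5 were higher and 12 lower with SFA (median −0.11), and 6 were higher and 11 lower with SFE (median −0.05). Of all genes, 48.6% were lower with SFA and 44.8% with SFE. Together the chaperone genes of the endoplasmic reticulum took 0.356% of counts with SFA, 0.366% with SFE and 0.400% with DMSO. That is 1.12-fold lower (1.11 to 1.14) with SFA and 1.09-fold lower (1.08 to 1.10) with SFE. CANX alone holds 3533 of their 48515 counts with SFA, 3665 of 50004 with SFE and 9249 of 75071 with DMSO. The share of the cytosolic and nuclear genes was instead 1.06-fold that of DMSO (1.06 to 1.07) with SFA and 1.03-fold (1.03 to 1.04) with SFE, although the SFE value became 0.978 under median-ratio scaling.

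HSPA5, the endoplasmic reticulum HSP70 also called BiP, was higher: it stood at 129.6 FPKM with SFA, 138 FPKM with SFE and 119 FPKM with DMSO. The ratio was 1.09 (1.06 to 1.13) with SFA and 1.17 (1.13 to 1.20) with SFE. HSP90B1, the endoplasmic reticulum HSP90 also called GRP94, was lower at 11.7 FPKM with SFA, 13.5 FPKM with SFE and 16.7 FPKM with DMSO, 1.43-fold lower (1.33 to 1.53) with SFA and 1.23-fold lower (1.16 to 1.32) with SFE. These genes are both classical targets of the unfolded protein response, and here they stood on opposite sides of DMSO.

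CANX, which encodes the membrane lectin calnexin, was the lowest of the set after DNAJC8. It lies on chromosome 5 (179678628 to 179730925, forward strand) and had 3533 counts with SFA, 3665 with SFE and 9249 with DMSO. The level was 25.1 FPKM with SFA, 26.1 FPKM with SFE and 47.8 FPKM with DMSO. It was 1.90-fold lower (1.83 to 1.98) with SFA and 1.83-fold lower (1.77 to 1.91) with SFE, past the 1.5-fold limit that 4.67% of all genes passed downward with SFA and 3.48% with SFE. The overlapping CBY3 and HMGB3P22 had no more than 6 counts in any library. CALR, its soluble relative calreticulin, differed far less at 267 FPKM with SFA, 273 FPKM with SFE and 298 FPKM with DMSO, 1.12-fold lower (1.10 to 1.14) with SFA and 1.09-fold lower (1.07 to 1.11) with SFE.

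The 4 measured disulfide isomerases of the PDIA series lay close to DMSO. PDIA4 stood at 120.1 FPKM with SFA, 119 FPKM with SFE and 123 FPKM with DMSO. PDIA3, which works with the lectin chaperones, stood at 67.8 FPKM with SFA, 71.5 FPKM with SFE and 69.1 FPKM with DMSO. PDIA6 stood at 43.7 FPKM with SFA, 43.7 FPKM with SFE and 49.0 FPKM with DMSO. The largest of their log2 differences from DMSO was −0.16 in both comparisons. J-domain proteins of the endoplasmic reticulum that act with BiP differed among themselves. DNAJB9 had 61 counts with SFA, 53 with SFE and 96 with DMSO, and DNAJC3 had 203 with SFA, 180 with SFE and 301 with DMSO. DNAJB9 overlaps THAP5, with 85 counts with SFA, 49 with SFE and 183 with DMSO. It also overlaps PNPLA8, with 108 counts with SFA, 94 with SFE and 119 with DMSO. The part of these neighbours in the DNAJB9 counts was not tested. The ratios of DNAJB9 and DNAJC3 lay below 1, and of their intervals that of DNAJC3 with SFE left out 1 (0.680 to 0.993). DNAJC10, which reduces disulfide bonds of misfolded proteins, had a ratio of 0.668 (0.598 to 0.746) with SFA and 0.644 (0.575 to 0.720) with SFE. DNAJB11 had a ratio of 1.10 (0.977 to 1.24) with SFA and 1.10 (0.979 to 1.24) with SFE. DNAJC1 had a ratio of 1.40 (0.942 to 2.09) with SFA and 1.76 (1.21 to 2.58) with SFE on 54 counts with SFA, 68 with SFE and 53 with DMSO. Members of this group thus stood on both sides of DMSO.

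The endoplasmic reticulum stress element, CCAAT and CCACG separated by 9 bases, was searched in the same promoter windows as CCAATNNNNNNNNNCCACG on both strands. It occurred in 0.0769% of 35116 promoters, in 0.0916% of genes and in 5 of the 64 chaperone genes, which are shown because genes with the same element stood on both sides of DMSO. Capitals mark the element, which in CALR reads on the opposite strand.
HSPA5 (chr9:125241371-125241429, - strand): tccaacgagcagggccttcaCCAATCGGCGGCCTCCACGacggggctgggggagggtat
HSP90B1 (chr12:103930196-103930254, + strand): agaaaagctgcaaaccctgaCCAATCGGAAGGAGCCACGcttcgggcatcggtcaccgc
CALR (chr19:12938364-12938422, + strand): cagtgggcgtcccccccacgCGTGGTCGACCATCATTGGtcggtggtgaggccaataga
CANX (chr5:179698758-179698816, + strand): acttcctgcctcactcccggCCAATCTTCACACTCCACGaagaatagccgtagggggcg
PDIA6 (chr2:10812833-10812891, - strand): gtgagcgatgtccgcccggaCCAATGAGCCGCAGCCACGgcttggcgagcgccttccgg

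Of these 5 genes, HSPA5 was higher and the other 4 lower than DMSO with each compound. Their log2 differences ran between −0.90 and 0.13 with SFA and between −0.85 and 0.22 with SFE, with a median of −0.16 in each. Of all genes, 48.6% were lower with SFA and 44.8% with SFE.

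Among mitochondrial chaperones, DNAJA3 separated SFE from the other libraries. DNAJA3, the J-domain partner of mitochondrial HSP70, lies on chromosome 16 (4425805 to 4456775, forward strand) and had 1666 counts with SFA, 2832 with SFE and 1880 with DMSO. The level was 10.5 FPKM with SFA, 17.8 FPKM with SFE and 8.58 FPKM with DMSO. It was 2.07-fold higher with SFE (1.95 to 2.20) and 1.22-fold higher with SFA (1.14 to 1.30). On the log2(FPKM + 1) scale the SFE difference was 0.97, just inside the 2-fold limit.

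HSPD1, the HSP60 chaperonin, was lower: it had 4459 counts with SFA, 3470 with SFE and 7340 with DMSO, or 40.8 FPKM with SFA, 31.7 FPKM with SFE and 48.8 FPKM with DMSO. It was 1.20-fold lower (1.15 to 1.24) with SFA and 1.54-fold lower (1.48 to 1.60) with SFE. Its partner HSPE1, the HSP10 lid made from the opposite strand of the same locus, stood at 10.6 FPKM with SFA, 9.73 FPKM with SFE and 10.5 FPKM with DMSO, with both intervals including 1. The loci overlap each other and the read-through gene HSPE1-MOB4, which had 43 counts with SFA, 14 with SFE and 0 with DMSO, so the HSPD1 and HSPE1 counts are uncertain without a stated strand setting.

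HSPA9, the mitochondrial HSP70, stood at 56.3 FPKM with SFA, 55.9 FPKM with SFE and 59.3 FPKM with DMSO. DNAJC30, an inner-membrane J-domain protein, stood at 6.14 FPKM with SFA, 4.78 FPKM with SFE and 3.95 FPKM with DMSO, 1.56-fold (1.27 to 1.91) with SFA and 1.21-fold (0.974 to 1.50) with SFE. It overlaps WBSCR22. Of the 8 mitochondrial genes, 3 were higher and 5 lower with SFA (median −0.05), and 2 were higher and 6 lower with SFE (median −0.12). Of all genes, 48.6% were lower with SFA and 44.8% with SFE.

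**Figure D3:**
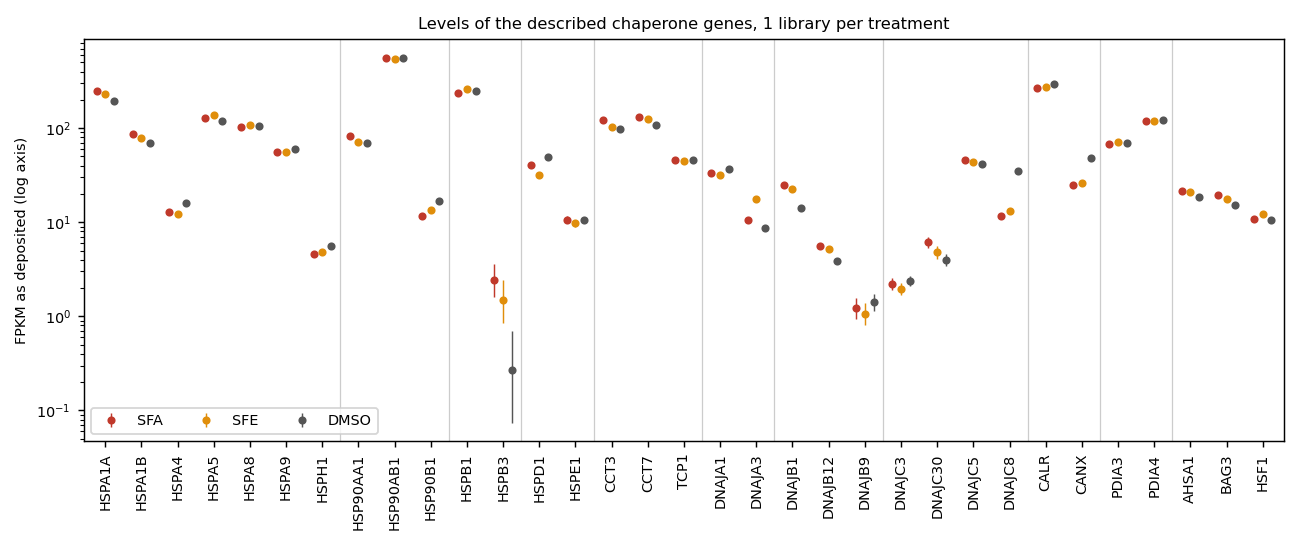
FPKM as deposited of the 33 described chaperone genes on a log axis, with SFA in red, SFE in orange, DMSO in grey and bars for the 95% counting interval; vertical lines separate families. HSP90AB1 is the highest at 555 FPKM with DMSO, and DNAJC8, CANX, DNAJB1, DNAJA3 and HSPB3 show the clearest gaps between libraries.

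The libraries with SFE at 18 µM and SFA at 12 µM were close to each other. Of the 69 genes, 26 were higher and 43 lower with SFE, beside 55.6% and 44.3% of all genes, with a median log2 difference of −0.02 against 0.02. On the log2(FPKM + 1) scale none was 2-fold higher or lower, which 0.676% and 0.616% of all genes were. On that scale DNAJA3 was the only one at least 1.5-fold higher, where 2.88% of all genes were. None was at least 1.5-fold lower, as 2.17% of all genes were, so that 68 of the 69 lay within 1.5-fold while 5.05% of all genes lay outside. By count ratios, DNAJA3 was 1.70-fold higher (1.60 to 1.81), and HSPB3 had a ratio of 0.615 (0.308 to 1.19) on 16 counts with SFE and 26 with SFA. HSPD1 had a count ratio of 0.778 (0.744 to 0.813) and CCT3 one of 0.858 (0.836 to 0.880). DNAJC8 with a ratio of 1.14 (1.03 to 1.27) and CANX with 1.04 (0.990 to 1.09) differed little between the treated libraries. The doses differ, so these values do not compare the compounds at a matched dose.

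Partner genes outside the name rule had medians close to 0 except for prefoldin and, with SFE, the heat shock factor list. Single genes stood farther out. Of the heat shock factor list HSF2, HSF4 and HSBP1, 2 genes were measured. HSF2 and HSBP1 were both higher with SFA (median 0.03) and both lower with SFE (median −0.16). With SFA both intervals included 1. The interval of the SFE ratio included 1 for HSF2 (0.648 to 1.04) and left out 1 for HSBP1 (0.795 to 0.996). Of 19 measured HSP70 and HSP90 co-chaperones, 9 were higher and 10 lower with SFA (median −0.01), and 12 were higher and 7 lower with SFE (median 0.02). BAG1, a nucleotide exchange factor of HSP70 that is named here after its values were seen, was the lowest at 8.12 FPKM with SFA, 9.08 FPKM with SFE and 17.6 FPKM with DMSO, a ratio of 0.460 (0.435 to 0.487) with SFA and 0.515 (0.487 to 0.544) with SFE. The 6 prefoldin subunits, which hand actin and tubulin to CCT, split 5 higher and 1 lower in both comparisons, with medians of 0.23 with SFA and 0.20 with SFE. Of 15 other folding factors of the endoplasmic reticulum, 8 were higher and 7 lower with SFA (median 0.02), and 11 were higher and 4 lower with SFE (median 0.03). Beside these partner lists, 51.4% of all genes were higher with SFA and 55.2% with SFE.

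For the unfolded protein response and degradation, 6 of 11 measured genes were higher and 5 lower with SFA (median 0.02), and 5 were higher and 6 lower with SFE (median −0.00037). The highest and lowest log2 differences, named after their values were seen, were those of DDIT3 and EIF2AK3 in both comparisons. DDIT3, below 1 FPKM with DMSO, had a ratio of 2.47 (1.86 to 3.30) with each compound. EIF2AK3 had a ratio of 0.686 (0.564 to 0.832) with SFA and 0.780 (0.647 to 0.938) with SFE. XBP1, the transcription factor spliced by IRE1, stood at 10.6 FPKM with SFA, 8.59 FPKM with SFE and 9.61 FPKM with DMSO. The 12 mitochondrial partner genes split 7 higher and 5 lower in both comparisons, with medians of 0.01 with SFA and 0.05 with SFE. Beside both lists, 51.4% of all genes were higher with SFA and 55.2% with SFE.

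Levels of different chaperone genes cannot be ranked from the deposited FPKM without its gene length. Among 13047 genes with over 20 counts with SFA, the length implied by count and FPKM was within 2% of the sum of all distinct exon records of GENCODE 29 for 87.9%, and within 2% of the non-redundant exon length for 12.7%. Exon bases shared by several transcripts therefore entered the length more than once. For 58 of the 69 measured chaperone genes the implied length exceeded the non-redundant length by more than 2%, with a median ratio of 1.48 and a highest of 2.91. For 7 of them it exceeded the whole locus. Count ratios between libraries for 1 gene are not touched by this. The log2(FPKM + 1) differences and the limit of 1 FPKM do depend on the length.

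HSPA8 shows the size of the effect: its implied length was 14123 bases in a locus of 5742 bases, against 4849 non-redundant bases. With the non-redundant length it stood at 303 FPKM with SFA, 312 FPKM with SFE and 305 FPKM with DMSO, against 105 FPKM deposited with DMSO. Its rank among the chaperone genes with DMSO went to 5 with the non-redundant length, against 8 as deposited. HSPA5 stayed at 119 FPKM and went to rank 12, against 6 as deposited, and HSP90AB1 kept rank 1 with 730.1 FPKM. The number of chaperone genes at 1 FPKM or more was 73 with the non-redundant length.

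**Figure D4:**
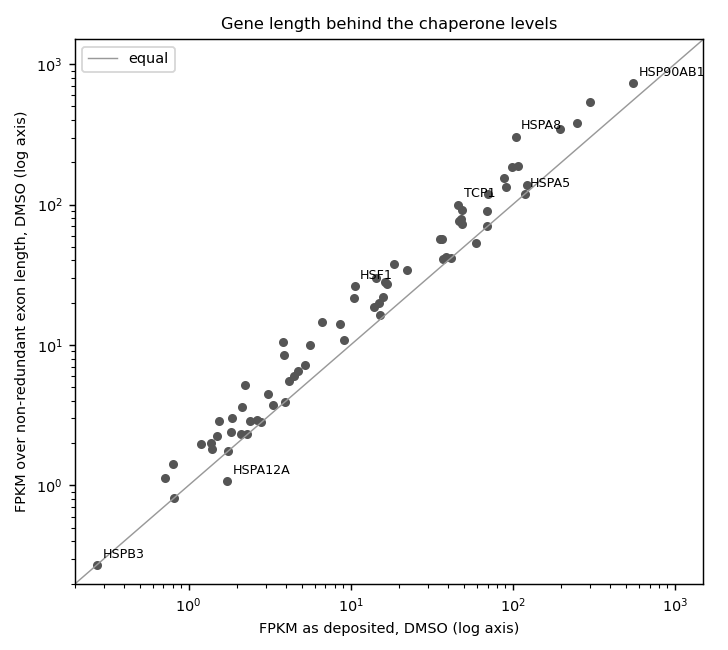
FPKM over the non-redundant exon length (vertical, log axis) against FPKM as deposited (horizontal, log axis) with DMSO, 1 point per measured chaperone gene, with a line of equality. Most points lie above the line, and HSPA8 lies at 105 FPKM as deposited and 305 FPKM with the non-redundant length.

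The 35 chaperone genes below 1 FPKM in every library carry little information. The highest of them was HSPA12B, at 0.997 FPKM with SFA, 0.498 FPKM with SFE and 0.280 FPKM with DMSO. DNAJC25 stood just inside the limit, at 0.907 FPKM with SFA, 1.22 FPKM with SFE and 0.798 FPKM with DMSO. Among all 104 genes, 14 were not annotated as protein coding in GENCODE 29, and none of those was measured. CCT8L2, DNAJB3, DNAJB8 and HSP90B3P had 0 counts in all 3 libraries, where 3 counts would have been 0.220 CPM with SFA, 0.220 CPM with SFE and 0.160 CPM with DMSO. Of the 69 measured genes, 43 overlap another listed gene.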

How the data were processed

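RNA sequencing of AGS cells gave 1 library each for SFA, SFE and DMSO. The submitters' processing notes name the hg38 build, StringTie 1.2.3 and HISAT2 2.0.4, with no roles. Which tool counted reads, with what strand setting and annotation, is not given in the sources used here. A table of 50868 gene rows with raw counts and FPKM per library was deposited by the authors. Each deposited FPKM equals the count over a fixed gene length and over all counts of the library, since the implied length of a gene varied by no more than 0.0831% among libraries.

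Of rows with the same gene name, that of highest mean FPKM stayed, which dropped 373 rows. Genes reaching 1 FPKM in any library were compared by log2(FPKM + 1), and folds are ratios of counts per total with 95% exact conditional (Clopper-Pearson) binomial intervals. TCP1 was kept because the rule names it, and HSPBP1 and HSPBAP1, whose names end like those of pseudogenes, were placed with the co-chaperones. Compartments were assigned by hand from background knowledge. Always named were 23 genes, with members at least 2-fold different, the 4 largest differences each way per comparison among genes at 5 FPKM or more, and the highest gene of each family; HSPA6, DNAJB2, DNAJB11, DNAJC1, DNAJC10, DNAJC13, HSPB8, PDIA6, XBP1, the members below 1 FPKM and DNAJC25 were named after their values were seen. The chaperone genes and all gene lists were chosen with earlier results of these data known. Promoters came from RefSeq (GRCh38.p14) and exon lengths from GENCODE 29. Calculations used Python 3.11.15, numpy 2.4.6, pandas 2.3.3 and scipy 1.17.1. Only the count ratios and their intervals were tested on simulated data, which held Poisson counting error and no spread between cultures. The alternatives were a pseudocount of 0.1, a filter of 5 FPKM, no filter, median-ratio scaling and leaving out overlapping genes. The non-redundant exon length and protein-coding genes alone were added after seeing the data.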

Additional observations from a re-analysis of the deposited data

How the results depend on the processing

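No paired analysis was possible because each group has 1 library. The median log2 difference of the chaperone genes ran from −0.03 to 0.03 for SFA against DMSO, from −0.04 to 0.05 for SFE against DMSO and from −0.05 to −0.0049 for SFE against SFA over all alternatives. With a filter of 5 FPKM, 20 genes were lower and 0 at least 2-fold higher with SFA than with DMSO, 18 were lower with SFE than with DMSO, and 17 were higher and 26 lower with SFE than with SFA. With no filter, 43 were higher with SFE than with SFA. Without genes that overlap another, 12 were higher and 14 lower with SFA than with DMSO, 15 and 11 with SFE than with DMSO, and 9 and 17 with SFE than with SFA. These settings change how many genes enter. The number at least 2-fold higher with SFE than with DMSO was 2 with a pseudocount of 0.1 and 1 with the non-redundant exon length. Median-ratio scaling shifted log2 differences by −0.03, −0.08 and −0.05 in these comparisons, and turned the direction of 4 ratios whose counting interval left out 1, to 0.992 for CALR (SFE against SFA), and for SFE against DMSO to 0.994 for CCT3, 0.971 for HSPA8 and 0.991 for HSPB1. Of the ratios whose interval included 1, the scaling carried those of HSP90AA1 (0.972) and PDIA3 (0.980) for SFE against DMSO and of HSPE1 (0.992) for SFA against DMSO across 1. It moved 23 further ratios beyond their counting interval without a change of direction. No alternative replaces replicates, and HSPB3 rests on 4 counts with DMSO.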

Other observations

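Pseudogenes left out by name held few counts. There were 72 of them, all annotated as pseudogenes in GENCODE 29, and they summed to 148 counts with SFA, 158 with SFE and 233 with DMSO. Only 3 reached 20 counts in a library. HSPD1P11, a pseudogene of the HSP60 gene, had 15 counts with SFA, 20 with SFE and 86 with DMSO. CCT6P3 had 31 counts with SFA, 33 with SFE and 35 with DMSO, and CCT6P1 had 33 with SFA, 26 with SFE and 24 with DMSO. All HSPD1 pseudogenes together had 23 counts with SFA, 28 with SFE and 92 with DMSO, beside 4459 with SFA, 3470 with SFE and 7340 with DMSO for HSPD1 itself.

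Among genes outside the name rule, TXNDC5, a disulfide isomerase of the endoplasmic reticulum, stood at 93.7 FPKM with SFA, 180.2 FPKM with SFE and 102 FPKM with DMSO. SIL1, a nucleotide exchange factor of BiP, stood at 4.13 FPKM with SFA, 3.73 FPKM with SFE and 2.10 FPKM with DMSO. PFDN1, a prefoldin subunit, stood at 5.67 FPKM with SFA, 8.99 FPKM with SFE and 5.31 FPKM with DMSO. DDIT3, which encodes the stress factor CHOP, had 140 counts with SFA, 140 with SFE and 78 with DMSO, a ratio of 2.47 with each compound. These genes were named after their values were seen.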
